A study of Mus musculus with 10 samples.

Results

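The colony-stimulating factors are secreted proteins that instruct myeloid cells to survive, divide and mature. CSF1, made from *Csf1*, and interleukin 34, made from *Il34*, are 2 unrelated ligands of 1 receptor, the tyrosine kinase CSF1R, on which most tissue macrophages depend. CSF2 (GM-CSF) acts through a ligand-binding alpha chain, CSF2RA, and a signalling beta chain, CSF2RB, which is shared with the receptors for interleukins 3 and 5. CSF3 (G-CSF) acts through CSF3R, the main growth factor receptor of the neutrophil lineage. In the pregnant uterus, CSF1 and CSF2 are known products of the hormone-stimulated and semen-exposed epithelium.

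These 8 genes (4 ligand genes and 4 receptor genes) were followed here among the 45706 genes of a count table from 10 mouse uteri. They were chosen as the rows whose Ensembl identifier carries the symbol *Csf1*, *Il34*, *Csf2*, *Csf3*, *Csf1r*, *Csf2ra*, *Csf2rb* or *Csf3r* in the GRCm38 annotation. Mouse *Csf2rb2*, a second beta-chain gene beside *Csf2rb* that serves interleukin 3, was read alongside. The comparison asked how loss of epithelial ARID1A, a subunit of the SWI/SNF chromatin remodelling complex, changed the uterine transcriptome at gestation day (GD) 3.5, just before implantation.

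The control uteri (n = 5) came from *Arid1a f/f* females, which carry loxP sites in both *Arid1a* alleles and no Cre. The conditional knockout (cKO) uteri (n = 5) came from *Ltf iCre/+ Arid1a f/f* females, which carry the same floxed alleles and 1 copy of an improved Cre recombinase knocked into the lactoferrin gene *Ltf*. All were intact females of mixed strain background, 12 to 15 weeks old by the study's methods, mated to wild-type males. The *Ltf* promoter drives Cre in the endometrial epithelium, and *Ltf-iCre* activity has also been described in neutrophils and other myeloid cells, which include cells that carry these receptors. A piece of whole uterus was sequenced, so fewer cells of a type and less RNA per cell cannot be told apart.

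Libraries held 65351817 to 72702411 counts in the control and 59296537 to 67990486 in the cKO uteri. The floxed gene was measured over its whole length in whole tissue. *Arid1a* averaged 213 ± 22.9 CPM (counts scaled to library size; mean ± SD, n = 5) in control and 185 ± 15.9 CPM in cKO uteri (adjusted p = 0.201, edgeR quasi-likelihood test). cKO replicate 5 stood apart: its neutrophil markers summed to 850 CPM, against 13.9 to 30.5 CPM in control and 14.9 to 25.0 CPM in the other cKO uteri, and it held the highest value of 6 of the 8 genes. The fold changes of the 8 genes are therefore also given without that uterus. The 7 stromal markers summed to 10680 to 15680 CPM in control and 9231 to 14460 CPM in cKO uteri. No other tissue was compared, so this sum describes the samples and does not test the tissue label.

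The 2 ligand genes with the largest fold changes below, *Csf2* and *Csf3*, also carry the densest runs of ATTTA in their 3′ untranslated regions. ATTTA is the core of the AU-rich element, a sequence through which short-lived cytokine messages are known to be degraded. For each ligand the stretch of 30 bases with the most copies is shown, 5′ to 3′ on the message strand, from the GENCODE vM21 (GRCm38) transcript. Capitals mark ATTTA, which may overlap by a base.
Csf2: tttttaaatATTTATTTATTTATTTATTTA
Csf3: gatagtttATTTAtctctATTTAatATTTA
Csf1: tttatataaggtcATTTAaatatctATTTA
Il34: tggttcctttttctattaaatggccATTTA

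The *Csf2* stretch holds 5 overlapping copies, a density reached by 21 of 16490 tested coding genes (0.127%). The *Csf3* stretch holds 3 copies, and 1.99% of genes have a stretch with at least as many. For the 2 copies of *Csf1* and the 1 copy of *Il34* the shares are 16.8% and 64.0%. Over the whole untranslated region, *Csf2* holds 9 copies in 317 bases and *Csf3* 6 copies in 669 bases. That is 28.39 and 8.97 copies per kb, against a median of 1.12 per kb over 16653 tested genes with such a region. Among the receptor genes, *Csf2ra*, *Csf2rb* and *Csf3r* hold no copy and *Csf1r* holds 3 in 1669 bases. These matches describe the annotated sequence. RNA stability was not measured.

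Of the 8 genes, 1 passed the threshold for a genotype difference (adjusted p under 0.05, edgeR), and it was a ligand gene, *Csf3*, which rose. Among all 25146 tested genes 9.70% passed, so the share among the 8 genes was near the background. The other 7 had adjusted p values from 0.0519 (*Csf2*) to 0.905 (*Csf1*). An unadjusted p under 0.05 was found for 3 of the 8 (*Csf2*, *Csf3* and *Csf3r*), and for 6593 of all 25146 tested genes. All 8 genes were above the minimum mean of 1 count per library and were tested. DESeq2 called 2 of the 8 (16.3% of all tested genes), *Csf2* and *Csf3*, and without cKO replicate 5 edgeR called 0 of them (9.15% of all tested genes; 3 had an unadjusted p under 0.05). Their fold changes were split, with 4 above and 4 below 0 and a median log2 fold change of 0.19, against 0.03 over all tested genes.

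**Figure D1:**
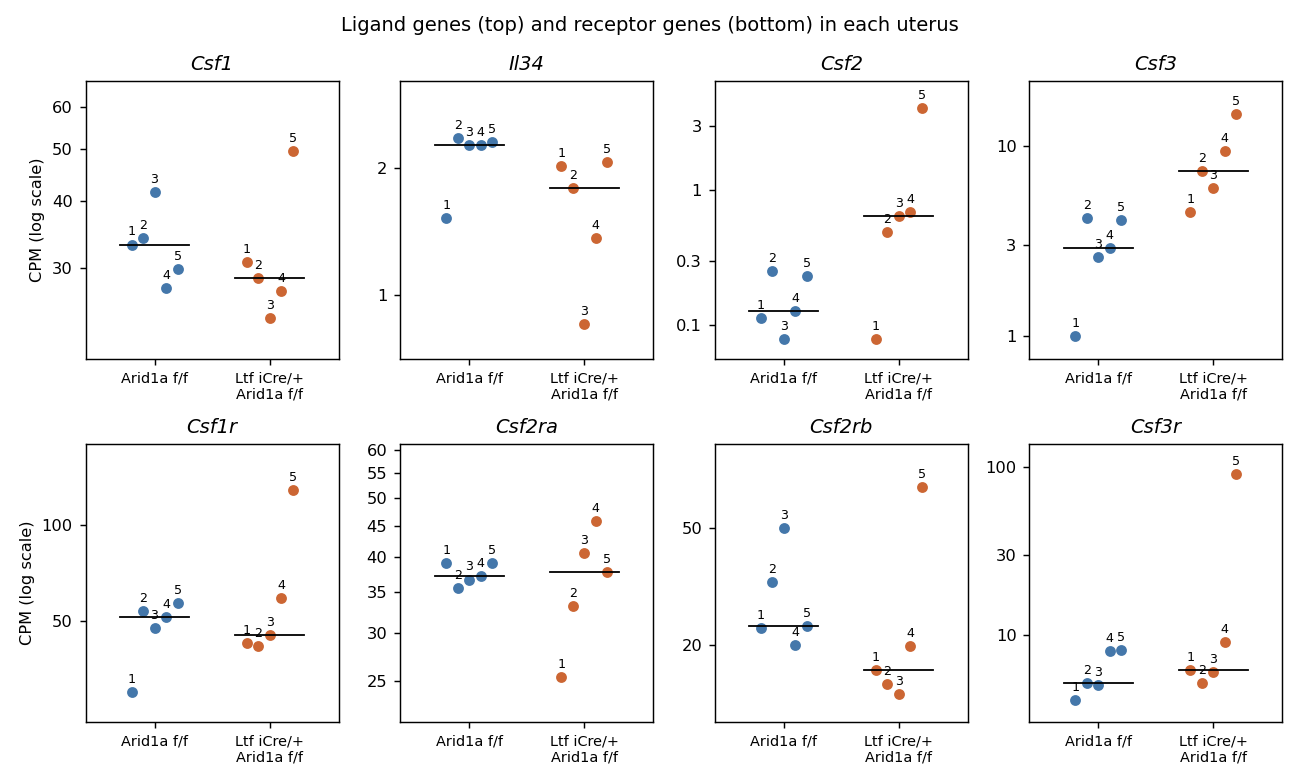
Level of each ligand gene (top row) and receptor gene (bottom row) in CPM on a log axis, 1 point per uterus numbered by replicate, with the median as a line, for control (*Arid1a f/f*) and cKO (*Ltf iCre/+ Arid1a f/f*) uteri; each panel has its own scale. *Csf3* was higher in all 5 cKO uteri than in any control uterus, and replicate 5 of cKO was the highest of the 10 uteri for *Csf1*, *Csf2*, *Csf3*, *Csf1r*, *Csf2rb* and *Csf3r*.

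*Csf3* (ENSMUSG00000038067, GRCm38 chr11:98701263-98703629, plus strand) encodes G-CSF, which drives neutrophil production and release. Control uteri read 0.993, 4.17, 2.60, 2.88 and 4.06 CPM in replicates 1 to 5. cKO uteri read 4.50, 7.33, 6.02, 9.41 and 14.7 CPM. The groups did not overlap, although control replicates 2 and 5 came close to cKO replicate 1. Across all tested genes, 10.7% had groups that did not overlap, 5.53% with the cKO uteri higher and 5.16% with them lower. The mean rose from 2.94 ± 1.29 to 8.39 ± 3.96 CPM, a ratio of 2.85 and a log2 fold change of 1.51 ± 0.40 (SE; 95% interval 0.64 to 2.39; adjusted p = 0.0364). An exact permutation test of the log2 CPM gave p = 0.00794, the smallest value that 5 against 5 uteri allow, and DESeq2 gave an adjusted p of 0.00145. The direction held in all 10 fits that left out 1 uterus, and the call held in 4 of them. The edgeR adjusted p was 0.0566, 0.0880, 0.0794 and 0.0516 without control replicates 2, 3, 4 and 5. It was 0.0670 without cKO replicate 4 and 0.0629 without replicate 5, when the log2 fold change was 1.21. Leaving out cKO replicate 5 and control replicate 1 together gave 0.0464 for a log2 fold change of 0.99, in a fit that called 8.27% of all genes.

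*Csf2* (ENSMUSG00000018916, chr11:54247271-54249667, minus strand) encodes GM-CSF, which promotes granulocytes, macrophages and dendritic cells. In control uteri it was scarce, at 0.112, 0.251, 0.0783, 0.128 and 0.230 CPM, which are 5 to 18 counts. cKO uteri read 0.0784, 0.490, 0.638, 0.683 and 4.05 CPM. Replicates 2 to 5 thus lay above every control uterus and replicate 1, with 5 counts, lay at the level of the lowest control. The means were 0.160 ± 0.0761 and 1.19 ± 1.62 CPM, and the log2 fold change was 2.88 ± 0.84 (SE; 95% interval 1.05 to 4.71). The adjusted p of 0.0519 missed the threshold, and the exact permutation p was 0.0556. The call depended on the tool and on single uteri: DESeq2 gave an adjusted p of 0.00219, the edgeR fit without replicate 1 of cKO gave 0.0215, and the fit without replicate 5 gave 0.107 with a log2 fold change of 1.55. An annotated gene on the opposite strand, *Gm12223*, held at most 1 count in any library.

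*Csf1* (ENSMUSG00000014599, chr3:107741048-107760469, minus strand) was the most abundant ligand message. It read 33.2, 34.1, 41.6, 27.6 and 29.9 CPM in control and 30.8, 28.8, 24.2, 27.2 and 49.7 CPM in cKO uteri. The groups overlapped, and the only uterus above the control range was replicate 5. The log2 fold change was -0.05 ± 0.19 (SE; adjusted p = 0.905). Its 95% interval was -0.46 to 0.36 on the log2 scale. Without replicate 5 the log2 fold change was -0.26 (adjusted p = 0.221).

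*Il34* (ENSMUSG00000031750, chr8:110741829-110805924, minus strand), the alternative CSF1R ligand best known from skin and brain, was low. Control uteri read 1.53, 2.36, 2.27, 2.27 and 2.31 CPM and cKO uteri 2.02, 1.79, 0.850, 1.37 and 2.07 CPM. Control replicates 2 to 5 were nearly equal and lay above all cKO uteri, whereas control replicate 1 lay among them. The log2 fold change was -0.41 ± 0.26 (SE; 95% interval -0.97 to 0.16; adjusted p = 0.358; exact permutation p = 0.127). Without control replicate 1 the exact permutation p was 0.0238 (unadjusted) for a log2 difference of -0.57, and the edgeR adjusted p was 0.263. In the other 9 settings that left out 1 uterus, the exact permutation p was 0.0952 to 0.254. *Gm15894* and *Gm15895* overlap it on the opposite strand, with at most 24 counts in any library.

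Within the ligand set, *Csf3* took a larger share in cKO uteri. Levels were divided by exon length to compare genes, and each ligand was expressed as a share of the 4 ligands' summed CPM per kb. *Csf1* made up 65.6 ± 9.71% in control and 44.5 ± 8.26% in cKO uteri. *Csf3* made up 21.0 ± 8.19% and 41.3 ± 6.63%, and its lowest share in cKO uteri, 31.4%, was above its highest control share, 28.8%. *Il34* made up 11.4 ± 1.40% and 6.26 ± 2.58%. The shares sum to a fixed total, so a rise of 1 ligand lowers the others; they are given as a description without a test. The difference between *Csf1* and *Il34* in log2 CPM did not pass an exact permutation test (0.37 higher in cKO, p = 0.143, adjusted over 4 such values 0.571).

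**Figure D2:**
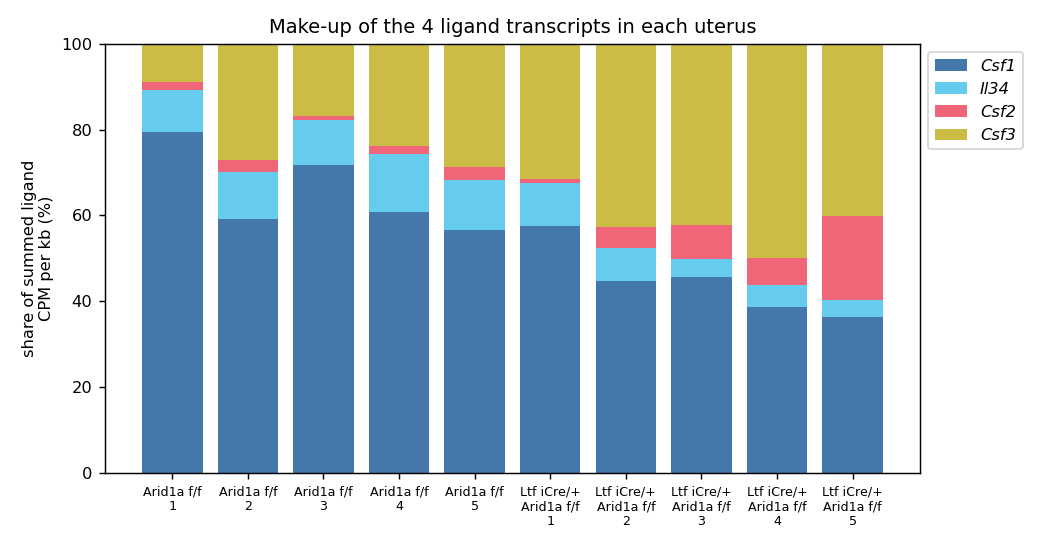
Share of each ligand gene in the summed CPM per kb of the 4 ligand genes (y axis, %), 1 stacked bar per uterus. *Csf1* was the largest share in all 5 control uteri, and the *Csf3* share was at most 28.8% in control and at least 31.4% in cKO uteri.

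Of the 4 receptor genes, 0 passed the threshold in edgeR, and 1 (*Csf3r*) had an unadjusted p under 0.05. Of all 25146 tested genes, 6593 had such an unadjusted p. DESeq2 called none of the 3 to which it gave an adjusted p, and gave none for *Csf3r*. *Csf1r* (ENSMUSG00000024621, chr18:61100598-61132149, plus strand), which marks macrophages and monocytes, read 29.7, 53.7, 47.5, 51.3 and 56.7 CPM in control uteri. cKO uteri read 42.6, 41.5, 44.9, 59.1 and 129 CPM. Replicates 1 to 3 lay inside the control range, replicate 4 just above it and replicate 5 far above it. The log2 fold change was 0.41 ± 0.31 (SE; 95% interval -0.27 to 1.10; adjusted p = 0.455), and it was -0.02 without replicate 5 (adjusted p = 0.956). *Hmgxb3* overlaps its exons on the opposite strand with 1854 to 2993 counts a library.

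Macrophage markers stood close to that pattern. Of 11 markers, 0 passed the threshold in edgeR (4 had an unadjusted p under 0.05 and DESeq2 called 2), and *Cd68*, a lysosomal protein, had the lowest p (log2 fold change 1.03, adjusted p = 0.0736; 0.54 without replicate 5). The fold changes pointed both ways, 8 above and 3 below 0. Among all 25146 tested genes, 6593 had an unadjusted p under 0.05, DESeq2 called 16.3% and 52.7% had a fold change above 0. *Mertk*, a receptor for dying cells, had a log2 fold change of -0.30 (adjusted p = 0.0779), and it was called lower by DESeq2 (adjusted p = 0.0385) and by edgeR without replicate 5 (-0.38, adjusted p = 0.0184). Their summed level was 214 to 375 CPM in control and 326 to 682 CPM in cKO uteri. *Csf1r* relative to these markers, as a difference of mean log2 CPM, was 1.18 ± 0.117 in control and 1.20 ± 0.311 in cKO uteri (difference 0.02, exact permutation p = 0.881). Control replicate 1, the lowest for *Csf1r*, was also the lowest for the summed macrophage markers.

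*Csf3r* (ENSMUSG00000028859, chr4:126024550-126044440, plus strand), the receptor of the ligand that rose, read 4.10, 5.20, 5.06, 8.07 and 8.11 CPM in control uteri. In cKO uteri it read 6.23, 5.15, 6.05, 9.12 and 90.5 CPM. A single uterus carried the difference: replicates 1 to 3 lay inside the control range, replicate 4 slightly above it, and replicate 5 more than any other uterus. The log2 fold change was 1.94 ± 0.79 (SE; 95% interval 0.21 to 3.67; adjusted p = 0.145), and it was 0.12 without replicate 5 (95% interval -0.43 to 0.67; adjusted p = 0.809).

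Neutrophil markers moved with *Csf3r* in that uterus. *S100a8*, which encodes a calcium-binding protein abundant in neutrophils, read 0.298 to 1.26 CPM in control, 0.423 to 0.726 CPM in replicates 1 to 4 and 290 CPM in replicate 5. Of 10 tested neutrophil markers, *Ly6g*, the surface antigen that defines mouse neutrophils, and the collagenase gene *Mmp8* passed the threshold, both higher. Among all tested genes, 5.19% were called higher. *Ly6g* read 0.0574 to 0.196 CPM in control and 0.164 to 5.32 CPM in cKO uteri, and *Mmp8* read 0.0139 to 0.0852 CPM and 0.110 to 17.2 CPM. Without replicate 5, *Ly6g* still passed (adjusted p = 0.0457) and *Mmp8* did not (adjusted p = 0.0919), and the median log2 fold change of the markers was -0.30 against 4.27 with it. *Csf3* averaged 6.82 ± 2.08 CPM over replicates 1 to 4. In these 4 uteri the summed neutrophil markers and *S100a8* were inside the control range, but *Mmp8*, at 0.110 to 0.247 CPM, was above every control. *Ly6g* read 1.71, 0.372, 0.164 and 0.247 CPM in replicates 1 to 4, above every control except in replicate 3. Both genes had few counts. In these 4 uteri *Mmp8* held 7 to 17 and *Ly6g* 10 to 109, against 1 to 6 and 4 to 14 in control uteri. *Csf3r* relative to the neutrophil markers did not differ detectably (-0.34, exact permutation p = 0.405). The part of neutrophil content in these results was not tested further.

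**Figure D3:**
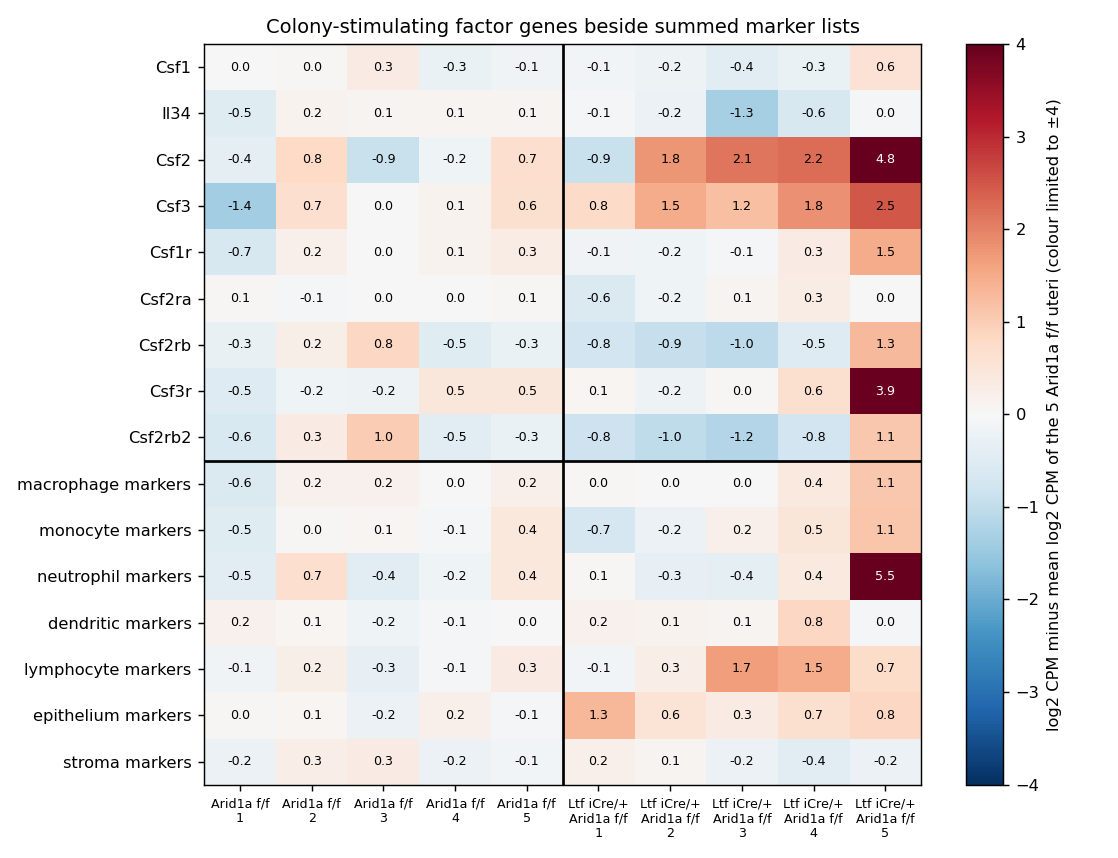
Log2 CPM of each gene, and of the summed CPM of each marker list, minus its mean over the 5 control uteri; rows are genes (top) and lists (bottom), columns are uteri, and the number in each cell is that difference. cKO replicate 5 was highest for *Csf3r* (3.9) and the neutrophil markers (5.5), whereas *Csf3* was above the control mean in all 5 cKO uteri.

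*Csf2ra* (ENSMUSG00000059326, chr19:61223957-61228429, minus strand), the alpha chain that gives GM-CSF its specificity, was nearly constant among controls, at 39.1, 35.5, 36.7, 37.2 and 39.1 CPM. cKO uteri read 25.4, 33.2, 40.6, 45.9 and 37.8 CPM. Of these, 2 lay below and 2 above all controls, so the mean barely moved (log2 fold change -0.04 ± 0.14 SE; 95% interval -0.33 to 0.26; adjusted p = 0.899; -0.05 without replicate 5). The SD of the log2 CPM was 0.0602 in control and 0.326 in cKO uteri. *Csf2ra* was 1 of the 2 genes, with *Il34*, whose highest value was not in replicate 5.

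*Csf2rb* (ENSMUSG00000071713, chr15:78325752-78353847, plus strand), the shared signalling chain, read 22.8, 32.7, 50.2, 20.0 and 23.2 CPM in control uteri. cKO uteri read 16.4, 14.7, 13.7, 19.8 and 68.8 CPM. Replicates 1 to 4 lay below every control, replicate 4 only narrowly, and replicate 5 lay above every control. The log2 fold change was -0.16 ± 0.46 (SE; 95% interval -1.15 to 0.84; adjusted p = 0.870). Without replicate 5 it was -0.88 (95% interval -1.45 to -0.32), with an adjusted p of 0.0545 and an exact permutation p of 0.0159.

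*Csf2rb2* (ENSMUSG00000071714, chr15:78282507-78305721, minus strand) showed the same split, with cKO replicates 1 to 4 below and replicate 5 above every control. It read 12.1, 23.3, 37.0, 13.5 and 15.4 CPM in control and 10.4, 9.19, 8.22, 10.8 and 38.8 CPM in cKO uteri (log2 fold change -0.39, adjusted p = 0.658). Without replicate 5 the log2 fold change was -1.07 (adjusted p = 0.0519). The Pearson correlation of the 2 genes' log2 CPM was 0.981 over 10 uteri and 0.982 over the 9 without replicate 5, a description of points that share their libraries.

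The beta-chain genes are near-identical copies, so reads can be hard to assign. Their coding sequences are 95.2% identical over 2628 aligned bases, and 26.0% of the 50-base stretches of *Csf2rb* coding sequence (26.6% of those of *Csf2rb2*) occur in both genes, at a read length of 50 bases. The 60 coding bases with the most differences are shown because reads there separate the genes. They are coding bases 304 to 363 of *Csf2rb* and 307 to 366 of *Csf2rb2*, and capitals mark the 13 positions that differ.
Csf2rb: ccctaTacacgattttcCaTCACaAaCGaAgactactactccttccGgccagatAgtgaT
Csf2rb2: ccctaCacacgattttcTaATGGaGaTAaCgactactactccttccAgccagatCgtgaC

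The RNA levels of the 2 GM-CSF receptor chains showed little correlation across these uteri. Their log2 CPM correlated at 0.14 over 10 uteri, and the difference *Csf2rb* minus *Csf2ra* was -0.42 ± 0.573 in control and -0.75 ± 0.959 in cKO uteri (difference -0.33, exact permutation p = 0.516). That difference was lower than in every control in 3 cKO uteri and higher in replicate 5. With *Csf2rb* and *Csf2rb2* summed it was -0.39 (exact permutation p = 0.444).

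**Figure D4:**
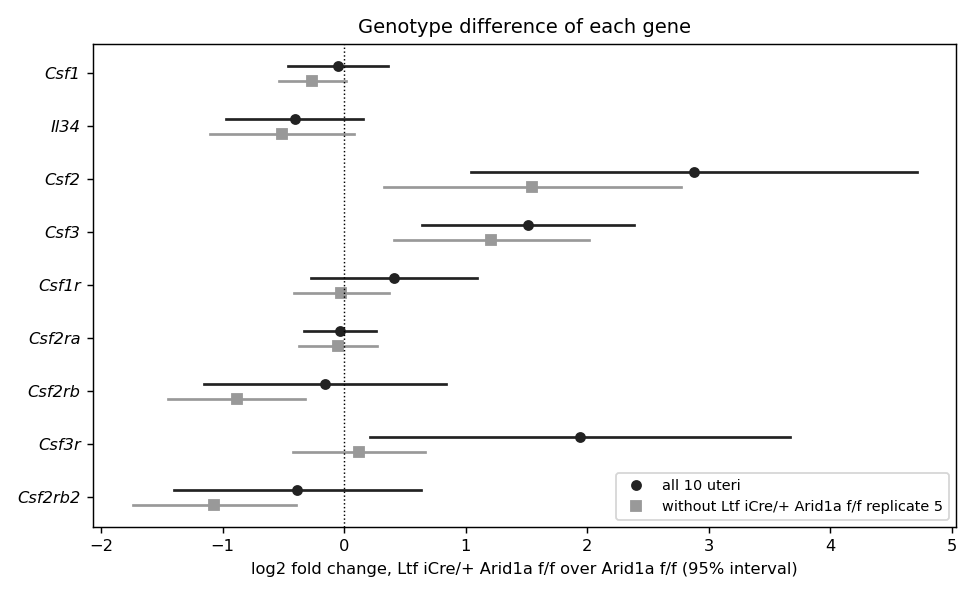
Log2 fold change of cKO over control uteri (x axis) with its 95% interval, for all 10 uteri (black circles) and without cKO replicate 5 (grey squares). The value of *Csf3r* moved from 1.94 to 0.12 and that of *Csf2rb* from -0.16 to -0.88, whereas that of *Csf3* moved from 1.51 to 1.21.

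By level per kb of exon, *Csf2ra* and *Csf1r* ranked above all 4 ligand genes in control uteri. The medians were 12.96 CPM per kb for *Csf2ra*, 8.88 for *Csf1r*, 6.29 for *Csf1*, 3.19 for *Csf2rb*, 2.04 for *Csf3*, 1.44 for *Csf3r*, 1.16 for *Il34* and 0.160 for *Csf2*. Only the first and the last steps of this order, *Csf2ra* over *Csf1r* and *Il34* over *Csf2*, had ranges that did not overlap. *Csf3* exceeded *Csf3r* in 3 of 5 control uteri. In cKO uteri the median of *Csf3* was 5.19 CPM per kb, above that of *Csf2rb* (2.25) in 5 of 5 uteri and next to *Csf1* (5.46), which it fell short of in 3 of 5. *Csf2*, at 0.797, stood next to *Il34*, at 0.914, which was the higher of the pair in 2 of 5 uteri.

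Apart from their partners in the set, the genes were placed by the 3 genes of at least 1 CPM with the highest Pearson correlation of log2 CPM over the 10 uteri. For *Csf3r* they included *S100a9* (0.985) and *S100a8* (0.983), which fell to 0.864 and 0.763 over the 9 uteri without replicate 5. For *Csf1r* they included *Fgr*, a myeloid tyrosine kinase (0.962, and 0.855 over 9 uteri), after *Kcnk13* (0.987) and *Treml2* (0.968). *Csf2rb* had *Csf2rb2*, *Cebpd* (0.963) and *Csf1* (0.941, and 0.885 over 9 uteri). *Csf1* in turn had *Sbno2* (0.988, and 0.975 over 9 uteri), *Vcam1* (0.956) and *Usp6nl* (0.944). *Csf3* had *Pfdn4* (0.961), *Relt*, a TNF receptor family member (0.953), and *Tnfaip8l2* (0.952). *Csf2ra* had no myeloid gene among its 3: *Glb1l* (0.979), *Gm16907* (0.977) and *Rdh5* (0.975). The nearest for *Csf2* was *Apoe* (0.951) and for *Il34* *Tcim* (0.934). The points share library and genotype, and these values carry no test.

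Among genes known to act downstream of the receptors, the messages of 2 kinases fell while that of a feedback gene rose. CSF2RB and CSF3R have no kinase of their own and rely on Janus kinases, which activate STAT proteins. Of 12 genes of this relay, 2 passed the threshold, both lower (4.51% of all tested genes were called lower and 5.19% higher), and the list's median log2 fold change was -0.05. *Jak1* fell from 395 ± 39.3 to 292 ± 28.2 CPM (log2 fold change -0.43 ± 0.10 SE, adjusted p = 0.0206). *Jak2*, the kinase bound to CSF2RB, fell from 352 ± 39.0 to 257 ± 22.4 CPM (-0.45 ± 0.10 SE, adjusted p = 0.0170). Both were lower in all 5 cKO uteri than in any control. Without replicate 5 both still passed (adjusted p = 0.0338 and 0.0291), and without control replicate 3 *Jak1* did not (adjusted p = 0.0540). Both kinases serve many other cytokine receptors.

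Of 9 genes that the receptors are known to induce through STAT proteins, 1 passed, higher, beside 5.19% of all tested genes. It was *Cish*, a STAT5-induced inhibitor of cytokine signalling. The list median was 0.45, and 0.19 without replicate 5. *Cish* read 16.5, 16.4, 13.7, 14.4 and 13.9 CPM in control and 23.1, 19.6, 26.5, 29.0 and 37.5 CPM in cKO uteri. The groups did not overlap, and the log2 fold change was 0.86 ± 0.16 (SE; adjusted p = 0.00879). It passed in all 10 fits that left out 1 uterus (adjusted p = 0.00771 without replicate 5). Whether the colony-stimulating factor receptors had a part in the *Cish* rise was not tested. *Socs3*, a feedback inhibitor that binds CSF3R, had a log2 fold change of -0.13 (adjusted p = 0.854) and was called lower without replicate 5 (-0.66, adjusted p = 0.0237). *Ccnd2*, a cell cycle gene, had a log2 fold change of 0.46 (adjusted p = 0.178) and was called higher without that uterus (0.63, adjusted p = 0.0127).

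**Figure D5:**
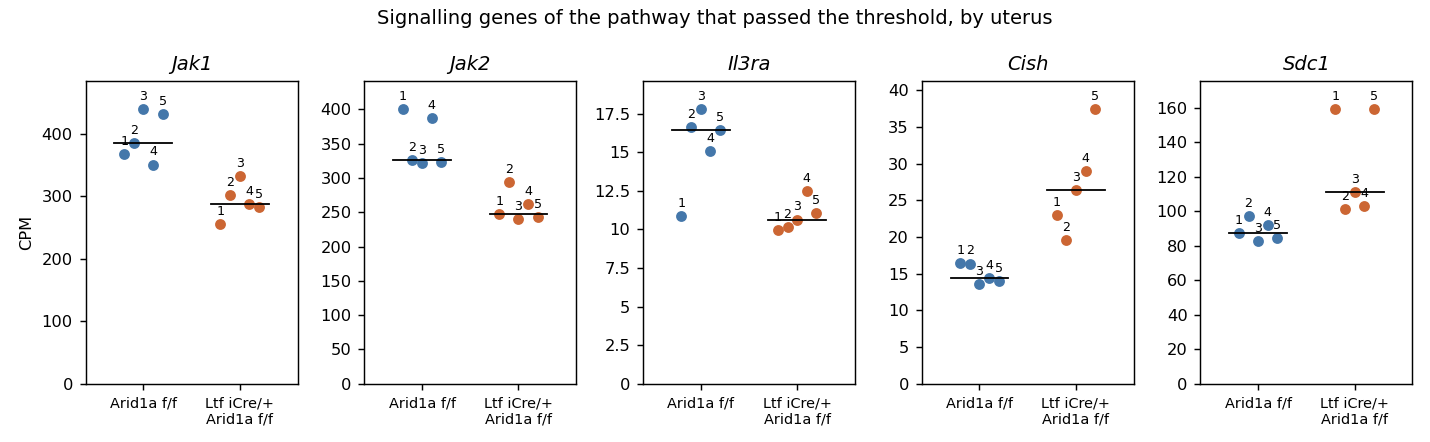
CPM (y axis, from 0) of 5 signalling genes of the pathway that passed the threshold, 1 point per uterus numbered by replicate, with the median as a line. *Jak1* and *Jak2* were lower, and *Cish* and *Sdc1* higher, in every cKO uterus than in any control; for *Il3ra*, control replicate 1 lay within the cKO range.

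Of the rest of the beta-chain family, *Il3ra*, the alpha chain of the interleukin 3 receptor, fell from 15.4 ± 2.71 to 10.9 ± 1.01 CPM (log2 fold change -0.50, adjusted p = 0.0479). That call held in 1 of the 10 fits without a uterus, the one without control replicate 1 (adjusted p = 0.0131), and its adjusted p reached 0.114 in the others. The other 3 tested genes (*Il5*, *Il5ra* and *Csf2rb2*) were not called, and *Il3* had 0 counts in all 10 libraries. Among 7 partners of the CSF1R ligands, 1 was called, higher: *Sdc1*, which encodes syndecan-1, a binding partner of interleukin 34 that epithelia carry. *Sdc1* rose from 88.8 ± 5.94 to 127 ± 30.0 CPM (log2 fold change 0.51, adjusted p = 0.0432) and was above all controls in 5 of 5 uteri. The call held in 3 of 10 fits without a uterus (adjusted p = 0.0263 to 0.103; 0.0730 without replicate 5). Of 6 epithelial markers, 4 also passed, higher (*Epcam*, *Cdh1*, *Krt8* and *Krt19*). The list median was 0.79, and the summed level was 614 to 819 CPM in control and 909 to 1804 CPM in cKO uteri. The part of these markers in the *Sdc1* difference was not tested. Beside the counts in this paragraph, 5.19% of all tested genes were called higher and 4.51% lower.

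Upstream, a list of 14 genes held 10 cytokines that are known to induce *Csf2* or *Csf3* and 4 regulators of the response. Of the 14, 7 passed, all higher (6 cytokines and 1 regulator; 5.19% of all tested genes were called higher), with a median log2 fold change of 2.75 (0.87 without replicate 5, when 7 also passed). Some of them were picked by the study on these samples for its own assays, so their direction is not independent evidence. Among the interleukin 36 genes, *Il36b* rose from 0.389 ± 0.171 to 7.53 ± 5.61 CPM (adjusted p = 0.00202) and *Il36a* from 0.0597 ± 0.118 to 15.1 ± 27.9 CPM (adjusted p = 0.0301). *Il17a*, whose product induces G-CSF in epithelium and stroma, rose from 0.0254 ± 0.0184 to 0.485 ± 0.510 CPM (adjusted p = 0.0106). *Tnf* rose from 0.583 ± 0.170 to 4.97 ± 6.44 CPM (adjusted p = 0.0216), *Il1a* from 0.0398 ± 0.0328 to 3.61 ± 7.29 CPM (adjusted p = 0.0307) and *Il18* from 4.83 ± 0.661 to 9.14 ± 1.14 CPM (adjusted p = 0.00443). Counts per control library were few, at 0 to 3 for *Il17a*, 0 to 6 for *Il1a* and 0 to 19 for *Il36a*. In cKO libraries they were 9 to 94, 3 to 1150 and 5 to 4463. The cytokines not called were *Il1b*, *Il17f*, *Il33* and *Il36g*. *Zc3h12a*, which encodes a ribonuclease that limits cytokine messages, rose from 3.07 ± 0.200 to 16.5 ± 22.8 CPM (adjusted p = 0.0484). Replicate 5 carried much of several of these means: over cKO replicates 1 to 4 the mean was 0.348 CPM for *Il1a*, 2.68 CPM for *Il36a*, 2.12 CPM for *Tnf*, 0.266 CPM for *Il17a* and 6.33 CPM for *Zc3h12a*. *Il17a*, *Il36b* and *Il18* were called in all 10 fits without a uterus, *Tnf* in 7, *Il36a* in 6, *Il1a* in 5 and *Zc3h12a* in 3. The messages of the transcription factors *Nfkb1* (-0.08) and *Rela* (0.02), which relay several of these signals, were not called.

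Of 10 myeloid transcription factor genes, 0 passed in edgeR (5 at an unadjusted p under 0.05, and 3 called by DESeq2). The log2 fold change was above 0 for 9 of 10, and the list median was 0.50. Over all 25146 tested genes, 9.70% passed in edgeR, 6593 had an unadjusted p under 0.05 and DESeq2 called 16.3%. The log2 fold change was above 0 for 52.7% of all tested genes, and their median was 0.03. *Spi1*, the PU.1 gene that drives *Csf1r* and *Csf3r* in myeloid cells, had the lowest p. It read 5.65, 8.09, 6.44, 6.75 and 7.25 CPM in control and 9.27, 9.01, 9.55, 12.4 and 24.7 CPM in cKO uteri. The groups did not overlap, yet the adjusted p was 0.0556 (log2 fold change 0.93), and it was 0.0458 without replicate 5 (0.56).

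The remaining marker lists were read for other cells that make or sense these factors. Beside the counts in these lists, 5.19% of all tested genes were called higher and 4.51% lower. *Chil3* was the 1 of 7 monocyte markers called, higher (log2 fold change 4.44, adjusted p = 0.0409; 0.0784 without replicate 5). *Zbtb46*, a transcription factor of conventional dendritic cells, was the 1 of 7 dendritic markers called, lower (24.4 ± 1.63 to 16.2 ± 2.50 CPM, adjusted p = 0.0109), whereas the other 6 had fold changes above 0. *Ear2* was the 1 of 5 tested eosinophil markers called, higher (0.752 ± 0.305 to 2.55 ± 0.785 CPM, adjusted p = 0.0115). Of these 5 markers, 3 had fold changes below 0, and the list median log2 fold change was -0.21. Of 8 lymphocyte markers, 3 passed, all higher: *Cd3e*, *Cd3d* and *Trdc*, the gamma-delta T cell receptor gene. T cells are known sources of interleukin 17 and GM-CSF. The summed lymphocyte markers were 28.2 to 44.7 CPM in control and 33.1, 43.0, 114, 98.9 and 58.7 CPM in cKO replicates 1 to 5. Replicate 1, the lowest of the 5 for this sum, was also the lowest for *Csf2* and *Csf3*, but replicate 5, by far the highest for *Csf2*, was below replicates 3 and 4 for the sum. *Dcn* was the 1 of 7 stromal markers called, lower (1602 ± 198 to 1024 ± 132 CPM, adjusted p = 0.0109). The part of these cells in the *Csf2* and *Csf3* values was not tested.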

How the data were processed

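The authors sequenced uterine RNA of 5 control (*Arid1a f/f*) and 5 conditional knockout (cKO) females as paired 50-base reads from a KAPA mRNA kit. Per the submitters' processing notes and the methods of the study, reads were trimmed (cutadapt 1.18, Trim Galore 0.6.4), checked with FastQC 0.11.9 and aligned to GRCm38 with STAR 2.7.3a, whose gene counting leaves out reads that map to several places. The deposited values were raw counts per gene. The annotation release and the strand setting of the counts were not given in the sources used here, so reads of overlapping antisense genes may not be separated.

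Of 45706 genes, 45143 matched the GENCODE vM21 (GRCm38) annotation, and 25146 were tested after a filter that required 1 count per library on average, holding 99.997% of counts. Genotypes were compared with edgeR 4.0.16 (TMM scaling, quasi-likelihood test, Benjamini-Hochberg adjustment over all tested genes, threshold 0.05) in R 4.3.3, and single values with two-sided exact permutation tests of log2 CPM (prior count 2), for which the smallest p is 0.00794. SE was taken as the log2 fold change over the root of F. The code was tested on simulated data. Alternatives were DESeq2 1.42.0, its size factors, other filters on low counts, a replicate block, a prior count of 0.5 and leaving out each uterus. Fits without cKO replicate 5 together with control replicate 1, and the sum of *Csf2rb* and *Csf2rb2*, were chosen after seeing the data. CPM per kb used the merged exon length. Levels are limited by counting error, for which 3 counts are 0.0418 to 0.0507 CPM. Each library is 1 uterus; the labels name no litter or batch, so p-values measure the spread between these uteri.

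The 8 genes, the gene lists and the tests were chosen with earlier results of these data known. Named genes were the 8 genes, *Csf2rb2*, *Arid1a*, from each list every gene passing the threshold (or else the one with the lowest p), and the 3 best correlated genes of each member. A few other list genes (*S100a8*, *Mertk*, *Socs3*, *Ccnd2*, *Nfkb1*, *Rela*, the cytokines not called and the remaining members of the beta-chain family) were named after their values were seen. Any 2 libraries of a group differed beyond counting noise, so none was a duplicate. No library column was left unused. Some marker genes of the lymphocyte and epithelial lists are not reported here and were left out of those lists.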

Additional observations from a re-analysis of the deposited data

Results flagged for a closer look

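Among the 8 genes, 4 of the 16 group readings held a uterus far from the other 4 of its group. Distance was the gap to its nearest neighbour over the group's range on the log2 CPM scale. Chance gives such a gap in about 1 in 20 groups of independent, normally spread values. The 16 readings share the same 10 libraries, and all 4 gaps fell on control replicate 1 or cKO replicate 5. Their number can therefore not be set against that rate. In control uteri the far uterus was replicate 1, at 0.64 for *Il34* and at 4.89 for *Csf1r*, both the lowest of the group. In cKO uteri it was replicate 5, at 6.10 for *Csf2rb* and at 6.50 for *Csf3r*, both the highest. Replicate 5 also had the highest summed neutrophil, macrophage and monocyte markers, and control replicate 1 had the lowest summed macrophage and monocyte markers of the control group; their part in these readings was not tested.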

How the results depend on the processing

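The *Csf3* rise kept its direction under all alternatives and its call under DESeq2, its size factors, both other filters and the replicate block. Leaving out single uteri gave *Csf3* log2 fold changes of 1.21 to 1.67, *Csf2* 1.55 to 3.18, *Csf1* -0.26 to 0.037, *Csf1r* -0.022 to 0.53, *Csf2ra* -0.13 to 0.066 and *Csf2rb* -0.88 to 0.11, with 0 to 2 of the 8 genes and 1204 to 2381 of all genes called, against 1 and 2438. The log2 CPM differences tested by permutation ranged over -0.25 to 0.007 (*Csf1*), -0.57 to -0.24 (*Il34*), 1.19 to 2.50 (*Csf2*), -0.002 to 0.41 (*Csf1r*), -0.15 to 0.06 (*Csf2ra*) and -0.81 to -0.18 (*Csf2rb*), and *Csf1r* against macrophage markers over -0.093 to 0.12. *Csf2* passed with DESeq2 (2.90, adjusted p = 0.00219) and with the filterByExpr filter (2.88, adjusted p = 0.0480), giving 2 called genes under each; DESeq2 called 4103 genes in all. Without control replicate 1 and cKO replicate 5 together, *Csf1r* changed sign (-0.15, adjusted p = 0.497) and *Csf3* passed (0.99, adjusted p = 0.0464). The cause of these changes was not tested.

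Same-numbered uteri correlated at -0.05 to 0.13 in their deviations from the group means, which gave no clear pairing by replicate number. Differently numbered uteri also varied. Control replicate 5 correlated at -0.13 and -0.17 with cKO replicates 1 and 2, and at 0.083 and 0.079 with cKO replicates 3 and 4. Control replicates 1 to 3 correlated at 0.025 to 0.10 with cKO replicates 1 and 2. Whether some uteri shared a litter or batch was not tested. With the replicate block *Csf3* passed (1.55, adjusted p = 0.0121), *Csf2* did not (2.14, adjusted p = 0.0977), and 1704 genes were called. DESeq2 gave no adjusted p for *Csf3r*. *Csf2* had the fewest counts of the 8 genes, 5 to 18 in control uteri; what limited its call was not tested.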
